A study of Mus musculus with 5 samples.

Results

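Complement is a cascade of blood and tissue proteins that marks cells and particles for removal and calls in leukocytes. C1q, built from 3 related chains encoded by C1qa, C1qb and C1qc, recognises its targets and starts the classical pathway, in which C4 (the product of C4b) and then C3 are cleaved. Factor B (Cfb) and properdin (Cfp) form and hold together the C3-cleaving enzyme of the alternative pathway, and the released fragments C3a and C5a act through the receptors C3ar1 and C5ar1. Tumour macrophages are a known source of C1q, while C3, factor B and C4 are also made by fibroblasts and epithelia. These 9 genes were matched by symbol among the 24860 gene symbols of the deposited matrices, and all 9 were found.

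The cells came from tumours of SSM2, a mouse mammary tumour cell line injected into a mammary gland (100000 cells per mouse, at 10 to 12 weeks of age) and collected 28 to 62 days later. Mice carried a subcutaneous pellet of progesterone, an ovarian steroid with its own nuclear receptor (3 libraries), or of placebo (2 libraries), both pellets made for 60 mg released over 60 days. All groups carried the same cell line, and the labels give no strain and no sorting step. Progesterone 1 and Placebo 1 formed batch 1, and Progesterone 2, Progesterone 3 and Placebo 2 formed batch 2, as the titles name them. The labels do not say that each library came from its own animal, and the names given to Progesterone 2 and Progesterone 3 have 1 identifier in common and end in different letters. The p-values below therefore cover the spread between libraries, which may be technical.

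A droplet kit was used that reads transcripts from the 3' end, and counts are of unique molecular identifiers (UMIs), the tags given to single molecules. Each library held 2241 to 5857 barcodes and 23409215 to 204786073 UMIs, with a median of 6172 and 8211.5 UMIs per barcode in Progesterone 1 and Placebo 1 and of 23702 to 25315.5 in batch 2. Pairs of libraries shared 2 to 12 barcodes, at most 0.312% of the smaller library. Of 26 clusters, formed without 54 complement genes, 6 with 4067 of 23018 cells kept no name. The others were classed by marker genes, and each class name means cells like that type. Placebo 1 stood apart: 4145 of its 4744 cells were T cells, and it held 5 macrophages, 5 fibroblasts and 3 epithelial cells. It is labelled tumour like the others, but the cells kept do not show whether it was tumour or another tissue, and each value of Placebo 1 carries that limit. Levels are in CPM, the usual scaling of a gene's UMIs to the total, with UMIs summed over the cells of a class in a library, and are given for classes with at least 10 cells. One UMI stands for one molecule whatever the transcript length, and CPM intervals are exact 95% Poisson intervals that cover counting error only.

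All 9 genes lie on the minus strand of GRCm38, by the GENCODE M21 annotation. C1qb (chr4:136880129-136886187), C1qc (chr4:136889804-136893065) and C1qa (chr4:136895917-136898803) are neighbours on chromosome 4. C4b (chr17:34728380-34743882), Cfb (chr17:34856374-34862518) and C3 (chr17:57203970-57228136) lie on chromosome 17. C3ar1 is at chr6:122847138-122856161, C5ar1 at chr7:16246743-16259540 and Cfp at chrX:20925454-20931555. Cfb overlaps Gm20547 on the same strand, so reads of the overlap cannot be told apart. C4b has a near-identical neighbour, C4a, so its count is uncertain where reads match both, and C4a itself stayed at or below 0.425 CPM in macrophages and 0.591 CPM in fibroblasts.

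RefSeq promoter windows (GRCm38.p6, 250 bases before to 50 after the start, coding strand) were found for 6 of the 9 genes. Those of C1qb and C1qc are shown because these chains moved together across cell classes, and that of Cfp because it followed other myeloid cells. Capitals mark GAGGAA or its complement TTCCTC, the core letters of sites for PU.1, a transcription factor of macrophages and neutrophils.
C1qb, chr4:136886151-136886450, minus strand: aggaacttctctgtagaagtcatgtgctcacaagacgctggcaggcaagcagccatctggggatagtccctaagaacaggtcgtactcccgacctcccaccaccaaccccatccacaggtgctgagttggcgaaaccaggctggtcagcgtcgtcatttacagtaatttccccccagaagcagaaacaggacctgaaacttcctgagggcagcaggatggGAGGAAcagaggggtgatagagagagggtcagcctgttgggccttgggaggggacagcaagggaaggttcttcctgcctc
C1qc, chr4:136892865-136893164, minus strand: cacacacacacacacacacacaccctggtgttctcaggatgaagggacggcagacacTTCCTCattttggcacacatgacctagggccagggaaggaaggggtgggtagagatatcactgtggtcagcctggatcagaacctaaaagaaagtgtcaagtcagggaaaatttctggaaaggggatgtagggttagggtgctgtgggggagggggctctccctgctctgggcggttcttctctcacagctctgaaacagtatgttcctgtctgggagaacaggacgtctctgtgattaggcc
Cfp, chrX:20931506-20931805, minus strand: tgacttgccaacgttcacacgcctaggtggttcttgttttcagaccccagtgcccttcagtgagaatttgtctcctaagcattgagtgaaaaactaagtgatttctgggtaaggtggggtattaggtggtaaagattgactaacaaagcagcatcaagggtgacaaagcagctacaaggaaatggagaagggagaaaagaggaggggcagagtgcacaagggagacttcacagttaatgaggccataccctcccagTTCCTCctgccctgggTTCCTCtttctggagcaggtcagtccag

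GAGGAA, sought on both strands, occurred 1 time in the C1qb window (first base at -30 from the start), 1 time in the C1qc window (at -193) and 2 times in the Cfp window. It was not in the windows of C3, C3ar1 and C5ar1, and it stood in 28.3% of all 32851 promoter windows. TGTTCT, the letters of a steroid receptor half-site, occurred 1 time in the C1qb window and 2 times in the C1qc window without touching a GAGGAA match, and stood in 19% of all windows. A match is a description of the letters and says nothing about binding.

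The C1q chains were genes of macrophages in every library that held enough of them. C1qa reached 1875, 3628 and 3293 CPM in the macrophages of Progesterone 1, 2 and 3, and 2662 CPM in those of Placebo 2. In monocytes C1qa was at 256, 967 and 1394 CPM in the progesterone libraries and at 547 and 402 CPM in Placebo 1 and Placebo 2. Every macrophage value lay above every monocyte value, for the macrophage class taken whole. Endothelial cells came next, with 89.5 CPM in Progesterone 1, against 0 CPM in Placebo 1 and 124 CPM in Placebo 2. All other classes were at or below 43.9 CPM. Macrophages held 67.3%, 95.3% and 94.1% of all C1qa UMIs in the progesterone libraries and 93.6% in Placebo 2. In Placebo 1 the library total was 262 C1qa UMIs, of which monocytes held 49.2% and the unnamed cells with macrophage markers highest held 31.3%.

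C1qb and C1qc followed C1qa. C1qb was at 2039.8, 3180.4 and 2949 CPM in progesterone macrophages and at 2377 CPM in those of Placebo 2, and C1qc at 1206, 2240 and 1926 CPM against 1537 CPM. Across 36 sums of a library and class with at least 20 cells, the 3 chains correlated with each other at r = 0.97 to 0.98 on the log2(CPM + 1) scale, a description over points that share libraries and depth. Macrophages held 1.09, 0.877 and 0.895 C1qb UMIs per C1qa UMI in the progesterone libraries and 0.893 in Placebo 2. The batch 2 libraries thus kept nearly the same ratio, and Progesterone 1 had more C1qb. Monocytes held more C1qb per C1qa, 1.35, 1.2 and 1 in the progesterone libraries and 1.78 and 1.36 in the placebo libraries.

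Free RNA can place C1q UMIs in droplets of other cells. With each cell thinned to 2000 UMIs, 71.3%, 83.4% and 77.1% of macrophages held a C1qa UMI in the progesterone libraries and 77.4% in Placebo 2. Among T cells, which should lack the gene, the thinned share was 2.36%, 2.56% and 1.75% in the progesterone libraries, against 0.0247% in Placebo 1 and 3.31% in Placebo 2. Epithelial cells, thinned, lay at 0%, 1.01% and 0.627% in the progesterone libraries and at 0.942% in Placebo 2, below the T cells of their own libraries. In Progesterone 1 this was 0 of 48 epithelial cells, with an exact 95% upper limit of 7.4%, and the T cell shares of Progesterone 2 and 3 rest on 39 and 57 cells. Thinning left out 2 to 24 macrophages, 7 to 97 T cells and 4 to 18 epithelial cells per library as too shallow. Before thinning, the epithelial share was 21.2%, 18.9% and 9.48%, against 11.6%, at median depths of 39376.5 to 49365 UMIs per cell. Before thinning, the T cell share was 8.75%, 6.52% and 4.41%, against 0.145% and 7.63%, at median depths of 4229 to 8353 UMIs. Per droplet the epithelial share was thus the higher of the 2 classes and at equal depth the lower, in each library with at least 10 cells of both. Whether C1q UMIs of epithelial cells are free RNA was not tested.

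**Figure D1:**
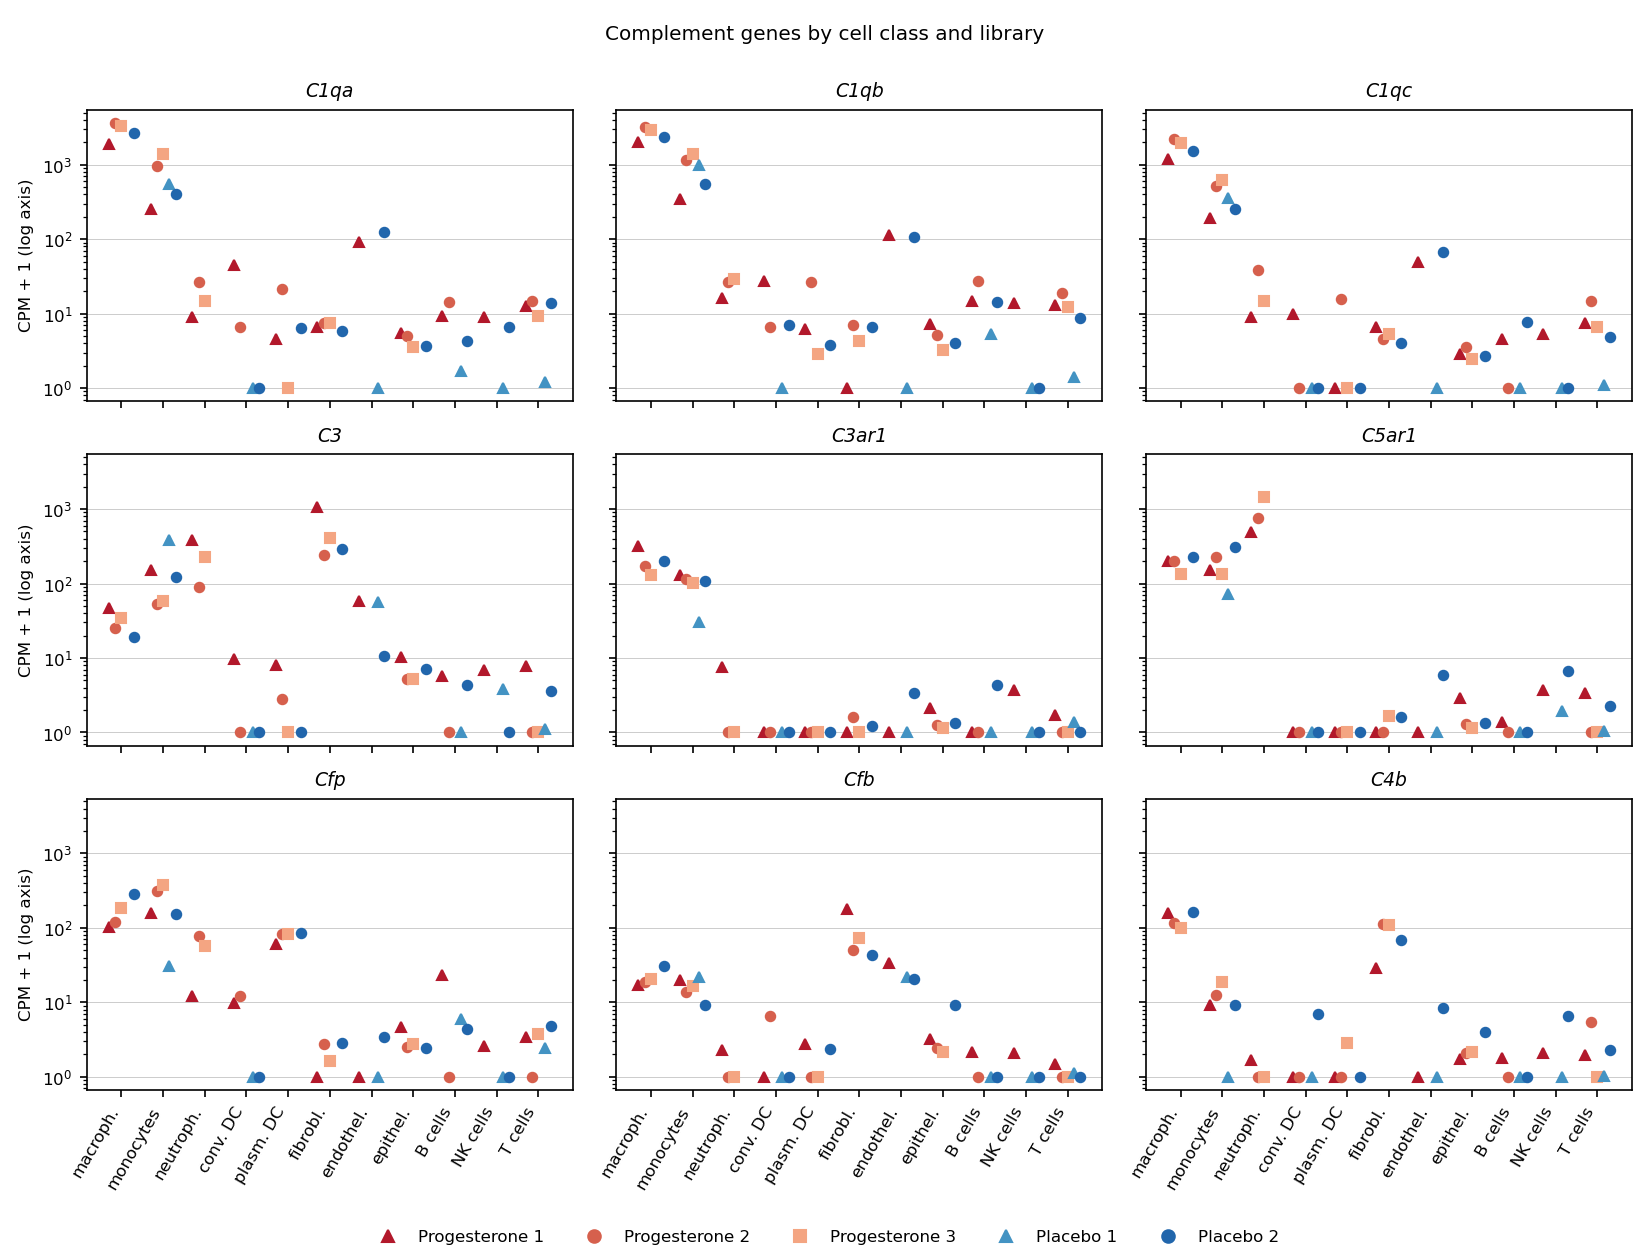
Level of each of the 9 complement genes (CPM + 1, log axis) by cell class, one point per library with at least 10 cells of the class; progesterone libraries are red and to the left, placebo libraries blue. The C1q chains and C3ar1 peak in macrophages, C5ar1 in neutrophils, and C3 and Cfb in fibroblasts.

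The receptor for C3a, C3ar1, was found mainly in macrophages and monocytes. It was at 316, 169.5 and 129 CPM in progesterone macrophages and at 201 CPM in those of Placebo 2. Monocytes had 127, 113 and 99.5 CPM in the progesterone libraries, against 29.7 and 106 CPM in Placebo 1 and Placebo 2. The lowest macrophage value and the highest monocyte value nearly met. No other class with 10 cells passed 6.61 CPM, the level in the neutrophils of Progesterone 1.

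The receptor for C5a, C5ar1, was highest in neutrophils, the cells it is best known for drawing in. Neutrophils had 492, 761 and 1436 CPM in Progesterone 1, 2 and 3 and were too few in both placebo libraries (9 and 5 cells) for a level. Macrophages had 202, 203 and 132 CPM in the progesterone libraries and 225 CPM in Placebo 2. Monocytes had 151, 229 and 135 CPM in the progesterone libraries, against 72.0 and 305 CPM in Placebo 1 and Placebo 2. Macrophages and monocytes overlapped, and both lay below all 3 neutrophil values. Neutrophils held 40.1% of C5ar1 UMIs in Progesterone 1 and 1.85% and 7.57% in Progesterone 2 and 3, in the order of their neutrophil counts per library (335, 26 and 29 cells).

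Properdin, Cfp, was a gene of myeloid cells with a different distribution. Monocytes had 159, 315 and 371 CPM in the progesterone libraries, against 29.7 and 152 CPM in Placebo 1 and Placebo 2. Macrophages had 103, 118 and 183 CPM in the progesterone libraries and 283 CPM in Placebo 2, a range that overlapped that of monocytes. Plasmacytoid dendritic cells, which make type I interferon, formed the next level with 59.7, 83.1 and 80.7 CPM in the progesterone libraries and 83.8 CPM in Placebo 2. Those 4 values lay close together, and neutrophils of Progesterone 2 (76.1 CPM) lay among them.

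C3, factor B and C4 were found in fibroblasts and in myeloid cells. C3 was highest in fibroblasts, with 1056, 244 and 413 CPM in the progesterone libraries and 288 CPM in Placebo 2. Neutrophils had 382, 88.8 and 223 CPM of C3 in the progesterone libraries. Monocytes had 152, 52.7 and 56.6 CPM in the progesterone libraries, against 377 and 122 CPM in Placebo 1 and Placebo 2, so the ranges of these 3 classes overlapped. Macrophages had 18.3 to 45.3 CPM of C3. Within each library with 10 fibroblasts, fibroblasts were first. Cfb was also first in fibroblasts, with 178, 49.5 and 71.2 CPM in the progesterone libraries and 41.8 CPM in Placebo 2. Macrophage Cfb lay between 16.2 and 29.9 CPM and overlapped monocytes (8.35 to 21.2 CPM) and endothelial cells (19.5 to 32.5 CPM). C4b was at 157, 116 and 97.5 CPM in progesterone macrophages and at 164 CPM in those of Placebo 2. In fibroblasts C4b was at 27.8, 110.4 and 108 CPM in the progesterone libraries and at 68.9 CPM in Placebo 2, a range that overlapped that of macrophages. No other named class with 10 cells passed 17.6 CPM of C4b.

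The share of a gene's UMIs that a class holds reflects both its level and the number of its cells. Epithelial cells had 4.26 to 9.33 CPM of C3 but were so many in batch 2 that they held 44.6% and 28.1% of C3 UMIs in Progesterone 2 and 3 and 23.8% in Placebo 2. Fibroblasts held 26.2% and 55.8% in Progesterone 2 and 3 and 65.4% in Placebo 2. Of Cfb UMIs, epithelial cells held 39.7% and 29.3% in Progesterone 2 and 3 and 63% in Placebo 2. Macrophages held 42.7% and 29.5% of Cfb UMIs in Progesterone 2 and 3 and 14.7% in Placebo 2. C4b was mainly in macrophages in every library with 10 of them, with 57.8%, 80.1% and 61.6% in the progesterone libraries and 57.7% in Placebo 2.

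A small unnamed cluster led by Wfdc18, a gene of the whey acidic protein family, held 70.5% of the 5209 C3 UMIs and 58.2% of the 433 Cfb UMIs of Progesterone 1. It had 25 cells in that library, at 4288 CPM of C3. The 21 cells with at least 10 C3 UMIs held 3670 of them, and their 8 fibroblast markers summed to 11384 CPM. In Progesterone 2 and 3 and in Placebo 2 the same cluster held at most 2.55% of C3 UMIs. The fibroblast markers of the whole cluster summed to 10.7 and 14.0 CPM in Progesterone 2 and 3 and to 68.3 CPM in Placebo 2, so the cells of this cluster were not alike across libraries.

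**Figure D2:**
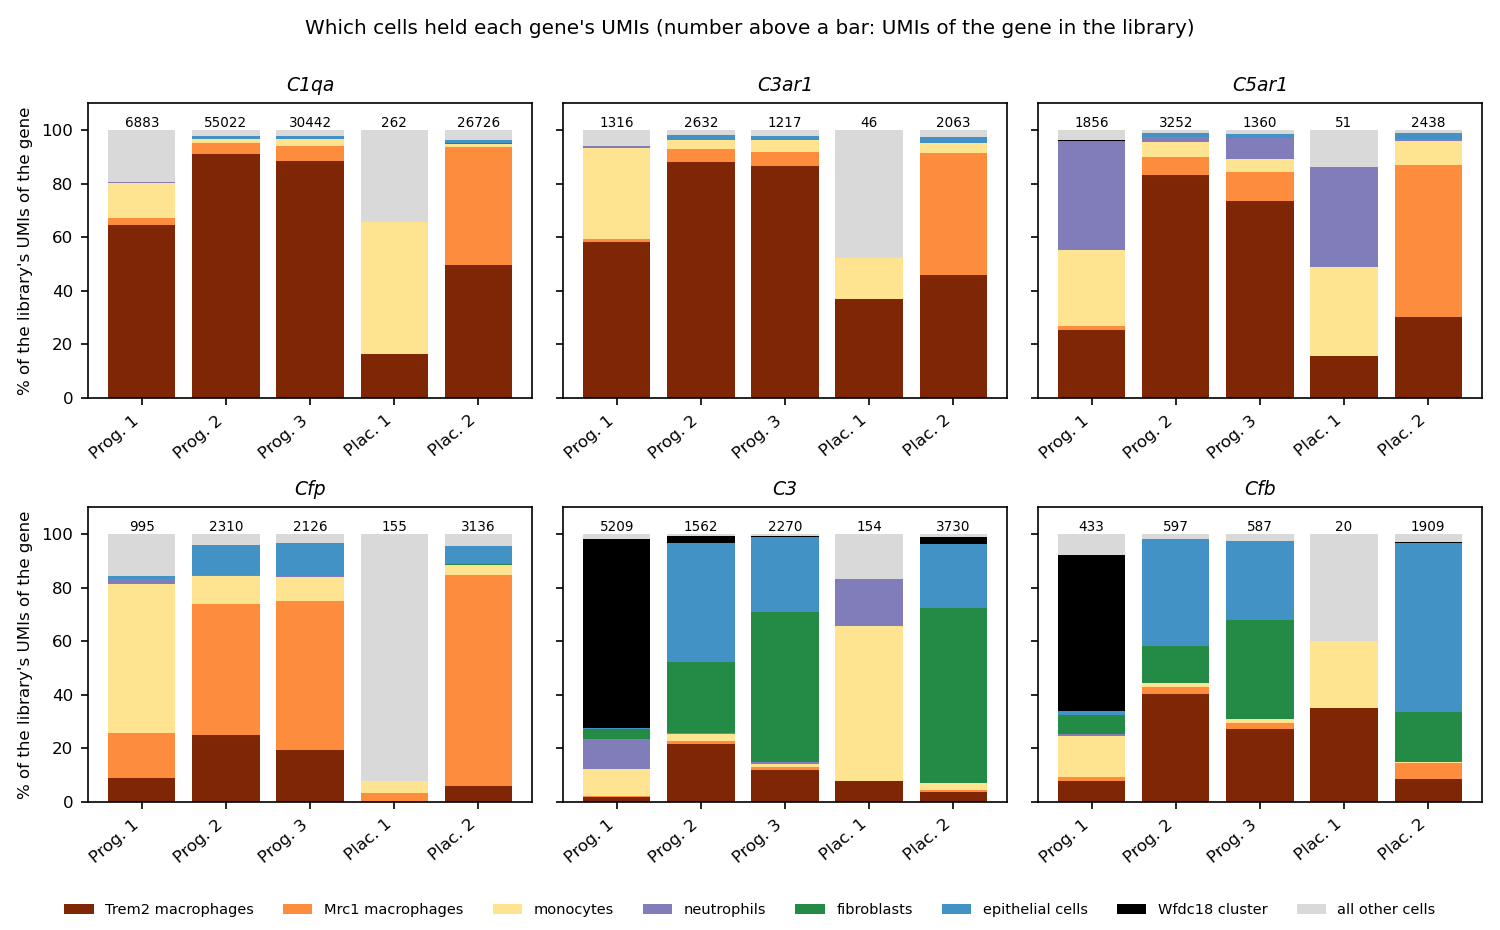
Percentage of a library's UMIs of each gene found in each cell class, one bar per library, with the library's UMI total of the gene above the bar. Macrophages hold 93.0% of C3ar1 UMIs in Progesterone 2, while C3 and Cfb are split between fibroblasts, epithelial cells, macrophages and, in Progesterone 1, the Wfdc18 cluster.

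The macrophage class joined 2 clusters that differed in their complement genes. One was led by Apoe, Ms4a7 and Trem2, a lipid receptor of macrophages (Trem2 cluster). The other was led by Retnla, Mgl2, Lyz1 and Mrc1, the mannose receptor (Mrc1 cluster). The Trem2 cluster made up 87.9%, 84.3% and 79.3% of macrophages in Progesterone 1, 2 and 3. It made up 39.3% in Placebo 2 (exact 95% binomial interval 35.5 to 43.3%). The Mrc1 cluster thus held most of the class only in Placebo 2, the only placebo library with at least 10 macrophages. Treatment and library cannot be told apart there. Placebo 1 had 3 and 2 cells in them. Levels by cluster are a description, since the clusters were formed on these cells.

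C1qa was at 2139, 4201 and 4136 CPM in the Trem2 cluster of the progesterone libraries and at 4036 CPM in that of Placebo 2. In the Mrc1 cluster it was at 461, 907 and 803 CPM in the progesterone libraries and at 1924 CPM in Placebo 2. The Trem2 cluster was higher in all 4 libraries, and in batch 2 its values lay close together while those of the Mrc1 cluster lay apart. In Progesterone 2 and 3 the Mrc1 cluster lay below the monocytes of the same libraries, at 967 and 1394 CPM. C3ar1 was at 368, 194 and 162 CPM in the Trem2 cluster of the progesterone libraries and at 288 CPM in that of Placebo 2. In the Mrc1 cluster C3ar1 was at 33.5, 51.3 and 30.5 CPM, against 154 CPM. Cfp ran the other way, with 43.2, 48.2 and 63.7 CPM in the Trem2 cluster against 57.9 CPM, and 425, 449 and 537 CPM in the Mrc1 cluster against 403 CPM. Of all Cfp UMIs the Mrc1 cluster held 16.6%, 48.9% and 55.6% in the progesterone libraries and 78.7% in Placebo 2.

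**Figure D3:**
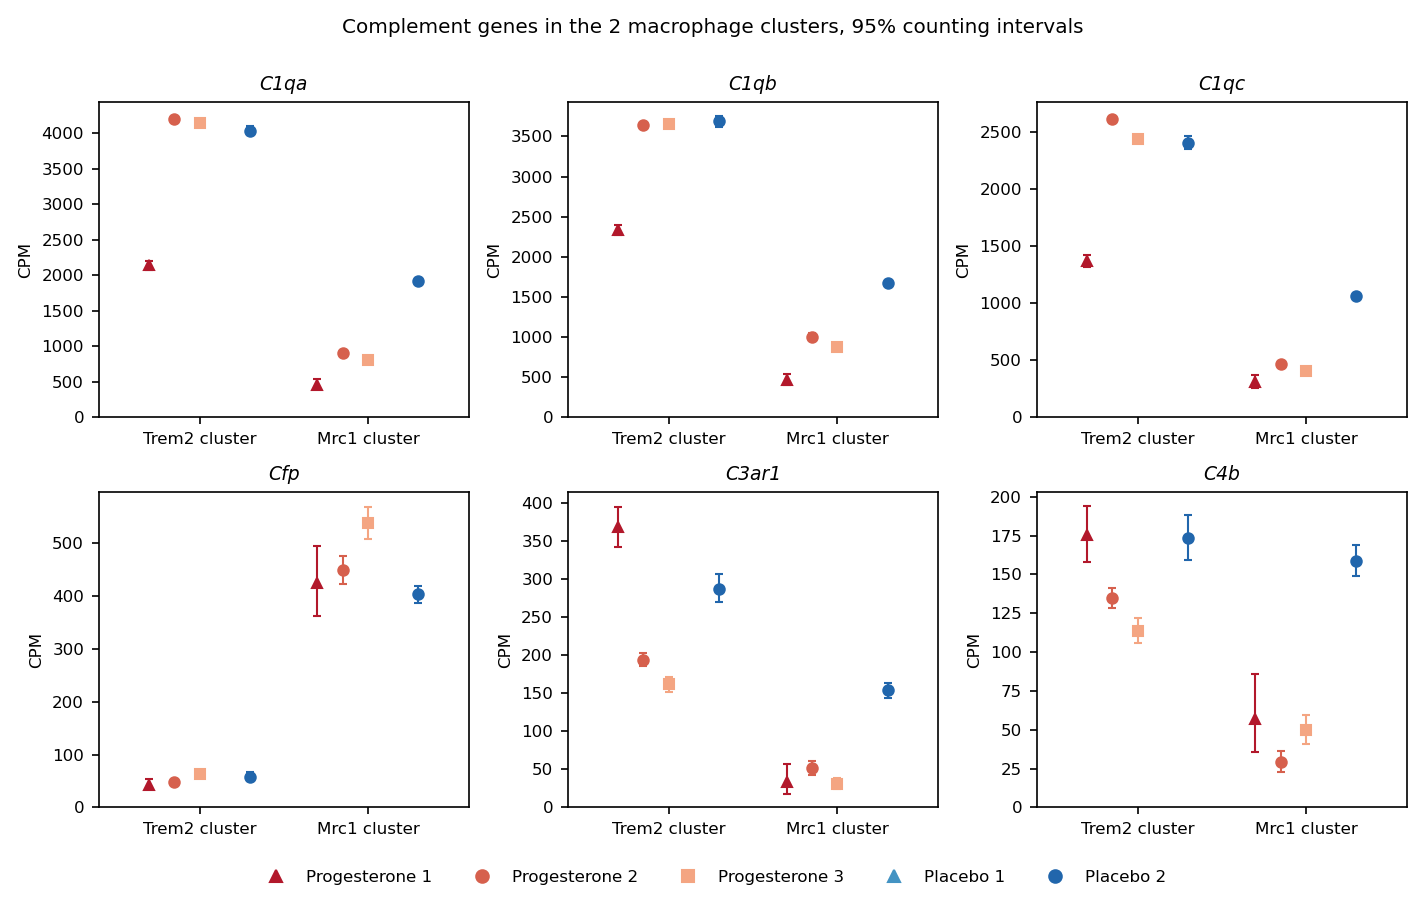
CPM of 6 complement genes in the Trem2 and Mrc1 macrophage clusters, one point per library with exact 95% Poisson intervals; Placebo 1 had under 10 cells in both and is not drawn. C1qa of the Mrc1 cluster lies between 461 and 907 CPM in the progesterone libraries and at 1924 CPM in Placebo 2, while the Trem2 cluster shows no such gap in batch 2.

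Progesterone was compared with placebo within each class by edgeR's quasi-likelihood test on summed counts with a term for batch. P-values were adjusted by Benjamini-Hochberg over all genes tested in the class, at a threshold of 0.05. In macrophages, epithelial cells and fibroblasts Placebo 1 fell under 10 cells. The batch term then absorbs Progesterone 1, and each contrast is Progesterone 2 and 3 against Placebo 2 with 1 residual degree of freedom. The only residual spread is then that between Progesterone 2 and 3, whose names share an identifier. EdgeR also pools spread over genes, so a gene's p-value does not measure its own spread between these libraries alone. The fit assumes the same spread for Placebo 2, alone in its arm.

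In the whole macrophage class C3 rose and Cfp, Cfb and C4b fell, so 4 of the 9 genes passed, 1 higher and 3 lower. Of all 12755 genes tested, 13.1% passed, 5.65% higher and 7.42% lower. The median log2 fold change was -0.41 over the 9 genes and 0.01 over all genes tested. C3, at 45.3, 24.6 and 33.8 CPM in the progesterone libraries and at 18.3 CPM in Placebo 2, rose by 0.67 on the log2 scale (SE 0.212, edgeR adjusted p = 0.0364). All 3 progesterone values lay above that of Placebo 2. Cfp fell by 0.90 (SE 0.234, edgeR adjusted p = 0.033), and its values under progesterone all lay below 283 CPM. Cfb had 16.2, 17.6 and 19.9 CPM in the progesterone libraries and 29.9 CPM in Placebo 2, and it fell by 0.66 (SE 0.189, edgeR adjusted p = 0.0179). C4b fell by 0.60 (SE 0.168, edgeR adjusted p = 0.0151), with every progesterone value below 164 CPM. The C1q chains did not pass, at log2 differences of 0.39 for C1qa, 0.38 for C1qb and 0.45 for C1qc (edgeR adjusted p = 0.146, 0.158 and 0.0912), and Progesterone 1 lay below Placebo 2 for each. C3ar1 (-0.41) and C5ar1 (-0.41) did not pass. Within the clusters, Cfp differed by 0.37 (Mrc1) and -0.08 (Trem2), so its fall in the whole class was not seen at that size in either. C3 differed by 0.49 in the Mrc1 cluster and by -0.26 in the Trem2 cluster. The part of the unequal cluster make-up in the whole-class values was not tested. No member passed without the batch term, with DESeq2, with the counts thinned to the smallest library, or with doublets kept or a finer clustering. In these last 2 settings no monocyte cluster was named, so the class took in the monocytes and, with them, Placebo 1. In that merged class with doublets kept the log2 differences were -0.41 for C3, 0.045 for Cfp and 0.065 for C4b, opposite to the directions above. With monocytes pooled into the class, in all 5 libraries, none of the 9 passed with edgeR or DESeq2 and 4 (C1qa, C1qb, C1qc and Cfb) had an unadjusted p under 0.05, where edgeR called 0.288% of 12162 genes, 0.164% higher and 0.123% lower. That count depended on the placebo library. The members that passed were mostly higher without Placebo 2 and all lower without Placebo 1 or without Progesterone 1. With either placebo library left out, the other stands alone. With no filter on low counts 2 members passed higher, where 692 of 17810 genes passed in either direction.

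The clusters were then tested apart. In the Mrc1 cluster 7 of the 9 genes fell and none rose, where 14% of 10517 genes tested passed, 7.29% higher and 6.72% lower. The median log2 fold change was -1.21 over the 9 genes and -0.00021 over all genes tested. C1qa fell by 1.09 (SE 0.141, edgeR adjusted p = 1.8e-06), with all 3 progesterone values below that of Placebo 2. C1qb was at 472, 1006 and 881 CPM in the progesterone libraries and at 1673 CPM in Placebo 2, and fell by 0.75 (SE 0.143, edgeR adjusted p = 0.000422). C1qc was at 309, 467 and 406 CPM in the progesterone libraries and 1068 CPM in Placebo 2, and fell by 1.21 (SE 0.149, edgeR adjusted p = 8.37e-07). No progesterone value of these chains reached that of Placebo 2.

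The receptors fell in the Mrc1 cluster too, C3ar1 at a log2 change of -1.81 (SE 0.226, edgeR adjusted p = 6.91e-05) and C5ar1 at -1.44 (SE 0.174, edgeR adjusted p = 1.47e-06). C5ar1 was at 77.3, 89.5 and 66.8 CPM in the progesterone libraries, against 226 CPM in Placebo 2. C4b was at 56.7, 29.0 and 49.6 CPM, against 159 CPM, and fell by 1.93 (SE 0.241, edgeR adjusted p = 0.000223). For these 3 genes too, no progesterone value reached that of Placebo 2. Progesterone 1 had 15 cells in this cluster, and its UMIs of C4b, and those of Cfb below, came from 1 cell each. Cfb, at 15.5, 5.57 and 5.46 CPM against 19.3 CPM, fell by 1.61 (SE 0.34, edgeR adjusted p = 0.00131), and Progesterone 1 lay close to Placebo 2. Cfp (0.37, edgeR adjusted p = 0.141) and C3 (0.49, edgeR adjusted p = 0.484) did not pass.

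Other markers moved with these genes in the Mrc1 cluster. The 9 macrophage markers summed to 1167, 1678 and 1219 CPM in the progesterone libraries, against 3187 CPM in Placebo 2. The 8 markers of conventional dendritic cells summed to 239.7, 263 and 261 CPM, against 143 CPM, and the 8 of neutrophils, among them Il1r2, to 307, 871 and 793 CPM, against 197 CPM. In a finer clustering, a cluster led by Retnla held 6, 76 and 65 cells of the progesterone libraries, against 320 of Placebo 2. An unnamed one, which scored highest for conventional dendritic cells, held 9, 66 and 57, against 52. It shared Htr7 and Mgl2 with the leading genes of the Mrc1 cluster. How many of its cells came from that cluster was not counted. The part of these markers and of this make-up in the lower complement genes was not tested. Without the batch term and with counts thinned to the smallest library no member passed in this cluster, and with DESeq2 5 did.

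In the Trem2 cluster, 2 of the 9 genes fell and none rose, where 2.91% of 11600 genes tested passed, 1.84% lower. C3ar1 fell by 0.71 (SE 0.187, edgeR adjusted p = 0.0285), with Progesterone 1 above Placebo 2 and Progesterone 2 and 3 below it. Cfb was at 16.3, 20.2 and 24.8 CPM in the progesterone libraries and at 49.6 CPM in Placebo 2, and fell by 1.17 (SE 0.211, edgeR adjusted p = 0.000737). All 3 progesterone values of Cfb lay below that of Placebo 2. The C1q chains differed by 0.03 (C1qa), -0.04 (C1qb) and 0.05 (C1qc), with an SE of 0.184 each, and did not pass. C3 was at 49.9, 28.4 and 41.7 CPM in the progesterone libraries and at 40.8 CPM in Placebo 2 (-0.26, edgeR adjusted p = 0.686). No member passed without the batch term, with DESeq2 or with thinned counts. Without the batch term no gene at all passed in either cluster, and with thinned counts none did in the Mrc1 cluster. DESeq2 called fewer genes than edgeR in both clusters.

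The difference between the clusters was itself tested, with each library as a block. The progesterone effect in the Mrc1 cluster was lower than in the Trem2 cluster by a log2 difference of -1.12 for C1qa (edgeR adjusted p = 9.05e-09), -0.72 for C1qb (edgeR adjusted p = 0.00121) and -1.26 for C1qc (edgeR adjusted p = 1.82e-10). It was also lower for C3ar1 (-1.12), C5ar1 (-1.18) and C4b (-1.45), at edgeR adjusted p = 4.13e-05, 5.05e-06 and 5.54e-08. The differences for Cfb (-0.49), Cfp (0.44) and C3 (0.75) did not pass. The clusters and this test were added after the data were seen, and the test leaves 1 residual degree of freedom. Genes that are no members passed it too.

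**Figure D4:**
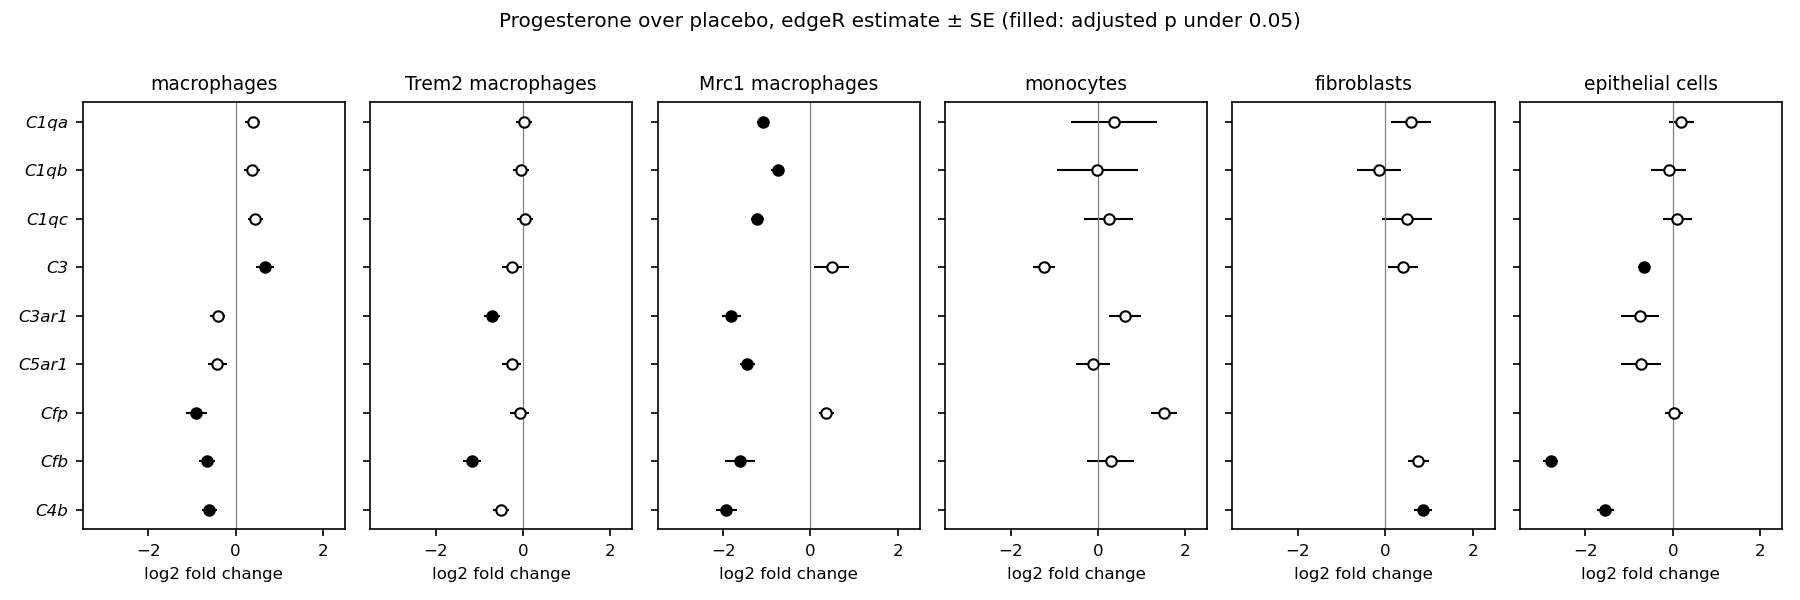
Log2 fold change, progesterone over placebo, of the 9 complement genes in 6 cell classes (edgeR estimate ± SE); filled points have an adjusted p under 0.05 and genes without a point were not tested. In the Mrc1 macrophages 7 genes lie to the left and pass, in the Trem2 macrophages C3ar1 and Cfb, and in epithelial cells C3, Cfb and C4b.

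Monocytes had at least 10 cells in all 5 libraries, 12 of them in Placebo 1, and no member passed there. EdgeR tested 8 of the 9 genes, and 0 passed, where 0.115% of 6981 genes did, 0.0716% higher and 0.043% lower. At an unadjusted p under 0.05, 2 members differed. Cfp was higher by a log2 difference of 1.51 (SE 0.293, edgeR adjusted p = 0.0768), with every progesterone value above both placebo values, and it was the 1 member that passed with DESeq2. C3 was lower by -1.23 (SE 0.25, edgeR adjusted p = 0.088), with Progesterone 1 above Placebo 2.

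The batches went opposite ways for C1q in monocytes. In batch 1, C1qb was at 344 CPM in Progesterone 1, against 975 CPM in Placebo 1. In batch 2 it was at 1162 and 1396 CPM in Progesterone 2 and 3, against 547 CPM in Placebo 2. The progesterone effect in batch 1 minus that in batch 2 was -2.72 for C1qa, -2.80 for C1qb and -2.12 for C1qc (edgeR adjusted p = 0.00153, 0.00032 and 0.0143, 1 residual degree of freedom). The 7 monocyte markers summed to 2882, 1543 and 831 CPM in the progesterone libraries, against 6599 and 2902 CPM in Placebo 1 and Placebo 2, and the 9 macrophage markers to 2106, 3525 and 3133 CPM, against 2589 and 3289 CPM. Their part in the C1q levels was not tested. The members that passed were mostly higher without Placebo 1 and mostly lower without Placebo 2, where C1qa was at -1.13. Each of these fits holds 1 placebo library.

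Epithelial cells, which include the tumour cells, had less Cfb, C4b and C3 under progesterone. These 3 of 9 genes passed and none rose, in a class where 47.9% of 16255 genes tested passed, 24.6% lower. The median was -0.66 over the 9 genes and 0.02 over all genes tested. Cfb was at 2.24, 1.45 and 1.15 CPM in the progesterone libraries and at 8.18 CPM in Placebo 2, and fell by 2.79 (SE 0.174, edgeR adjusted p = 2.52e-06). C4b was at 0.746, 1.08 and 1.16 CPM, against 2.96 CPM, and fell by 1.54 (SE 0.189, edgeR adjusted p = 0.000154). C3 was at 9.33, 4.26 and 4.27 CPM, against 6.04 CPM, and fell by 0.66 (SE 0.135, edgeR adjusted p = 0.00324). For Cfb and C4b the progesterone libraries lay below Placebo 2, while for C3 Progesterone 1, with 52 cells, lay above it. Progesterone 1, of the other batch than Placebo 2, held C4b UMIs in only 2 of those cells and Cfb UMIs in 6.

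Markers of fibroblasts, which had more C3, Cfb and C4b, moved the same way. The 8 fibroblast markers summed to 19.8, 17.4 and 16.7 CPM in epithelial cells of the progesterone libraries and to 47.8 CPM in those of Placebo 2. In fibroblasts they summed to 21502, 44043 and 41766 CPM in the progesterone libraries and to 37846 CPM in Placebo 2. Their part in the lower values was not tested. T cells of Placebo 2 held 0 Cfb UMIs, which allows up to 3.88 CPM. A Cfb UMI was found in 11.5%, 6.96% and 4.49% of epithelial cells in the progesterone libraries and in 26.1% in Placebo 2, at median depths of 39376.5, 49365 and 41680 UMIs per cell, against 43574.

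Placebo 2, the only placebo library with at least 10 epithelial cells, lay mostly in other epithelial clusters than the progesterone libraries. Treatment and library cannot be told apart there. Of the 2766 epithelial cells of Placebo 2, 370 lay in a cluster of 371 cells led by the division gene Birc5 and 2311 in one of 2322 cells led by Dcpp1. Cfb was at 8.22 and 8.47 CPM in the Placebo 2 cells of these clusters. In the clusters of Progesterone 2 and 3 it was between 0.498 and 1.85 CPM. The 39 Placebo 2 cells in a cluster led by Krt6a, made up mostly of progesterone cells, held 0 Cfb UMIs, which allows up to 1.14 CPM. The cells of Progesterone 2 and 3 in that cluster had 1.78 and 1.57 CPM, so there Placebo 2 was not higher. In a cluster led by Nrxn3, Progesterone 2 and 3 had 1.01 and 0.847 CPM and the 30 cells of Placebo 2 held 0 Cfb UMIs, which allows up to 3.39 CPM. The Birc5 and Dcpp1 clusters of Placebo 2, with nearly all its cells, were above all clusters of Progesterone 2 and 3. The Cfb call held under every alternative tried, C4b was lost with thinned counts, and C3 was lost without the batch term, with DESeq2 and with thinned counts.

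In fibroblasts C4b rose, and Cfb and C3 did not pass. Of 6 members tested, 1 passed, where 4.39% of 11388 genes did, 2.62% higher and 1.77% lower. The median was 0.54 over the 6 genes and 0.00 over all genes tested. C4b rose by 0.87 (SE 0.2, edgeR adjusted p = 0.023). Progesterone 2 and 3 lay above Placebo 2 and Progesterone 1, with 30 cells and an interval of 9.02 to 64.8 CPM, lay below it. Cfb differed by 0.75 (SE 0.245, edgeR adjusted p = 0.124), with all 3 progesterone values above that of Placebo 2, and C3 by 0.41 (SE 0.347, edgeR adjusted p = 0.687), with Progesterone 2 below it. The fibroblasts of Progesterone 1 were shallow, at a median of 1246.5 UMIs per cell against 23213.5 and 19935.5 in Progesterone 2 and 3 and 23543 in Placebo 2, and their pericyte markers summed to 2245 CPM, against 61.5 and 49.9 CPM in Progesterone 2 and 3 and 90.7 CPM in Placebo 2. The C4b call was lost without the batch term, with DESeq2, with thinned counts and with the Wfdc18 cluster added.

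The progesterone effect on these genes in fibroblasts was set against that in epithelial cells and in macrophages. The effect in fibroblasts was above that in epithelial cells by a log2 difference of 3.44 for Cfb (edgeR adjusted p = 2.65e-24), 2.31 for C4b (edgeR adjusted p = 1.31e-12) and 0.94 for C3 (edgeR adjusted p = 6.9e-06). It was above that in macrophages by 1.26 for Cfb (edgeR adjusted p = 0.0034) and 1.36 for C4b (edgeR adjusted p = 0.000358), while for C3 the difference was -0.43 and did not pass (edgeR adjusted p = 0.557). These tests were added after the data were seen and set the same libraries side by side. Genes that are no members passed both tests too, more of them against epithelial cells than against macrophages. Each test has 1 residual degree of freedom, from the spread between Progesterone 2 and 3. EdgeR also pools spread over genes, so these p-values do not measure those libraries alone. For C3 against epithelial cells the SE was 0.183, below the 0.347 of the fibroblast effect alone.

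**Figure D5:**
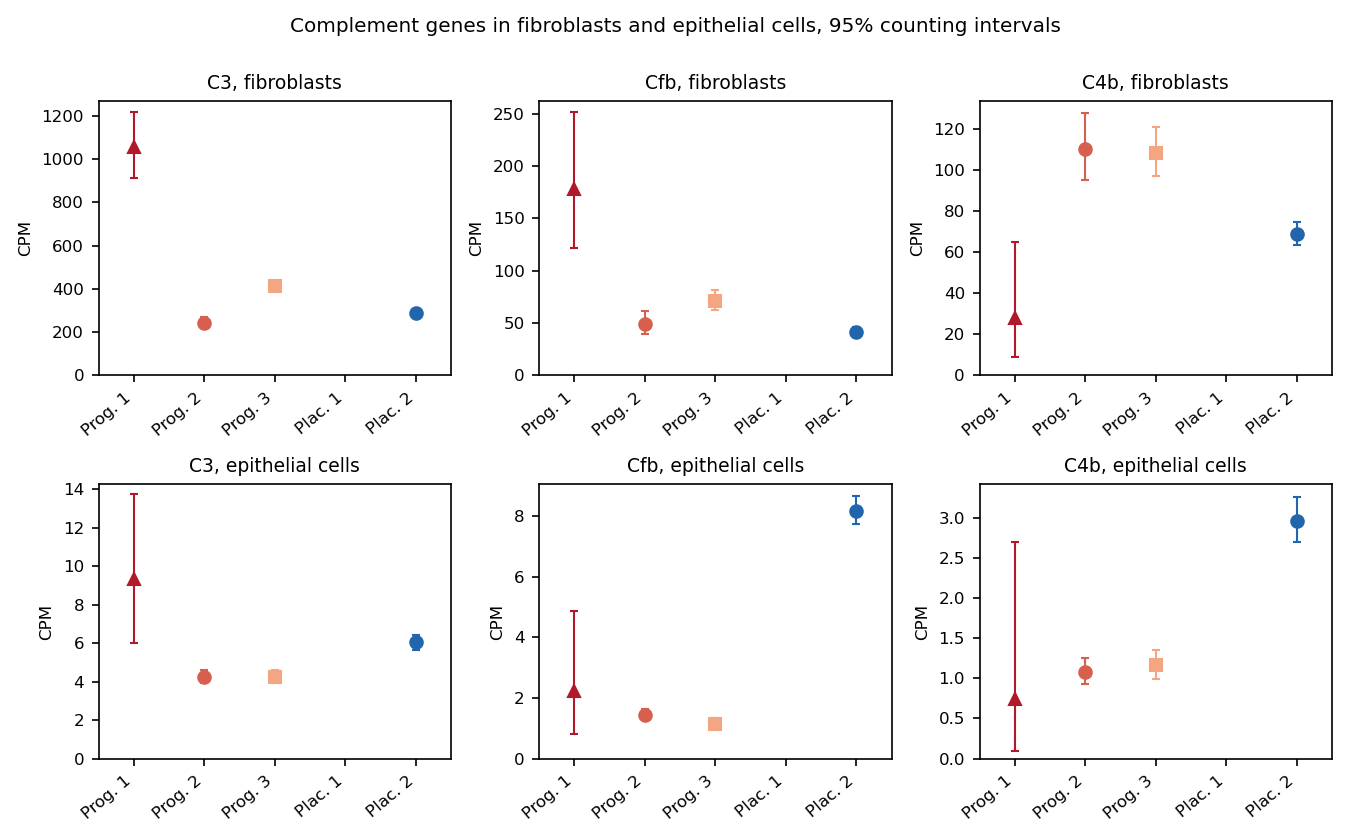
CPM of C3, Cfb and C4b in fibroblasts (upper row) and epithelial cells (lower row) by library, with exact 95% Poisson intervals; Placebo 1 had under 10 cells of both. Cfb in epithelial cells lies at 1.15 to 2.24 CPM in the progesterone libraries and at 8.18 CPM in Placebo 2, and in fibroblasts at 49.5 to 178 CPM and 41.8 CPM.

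Few members could be tested elsewhere. In plasmacytoid dendritic cells edgeR tested 3 members and none passed, where 0% of 7438 genes did, none had an unadjusted p under 0.05, and DESeq2 called none. Cfp there differed by -0.03 (SE 0.255). In B cells C1qb alone was tested and did not pass (1.32, SE 0.593, unadjusted p = 0.0362, edgeR adjusted p = 0.557), where 0.679% of 7507 genes did, 0.573% higher and 0.107% lower, and DESeq2 did not call it. No member passed the filter on low counts in T cells, where 0.0128% of 7840 genes passed the test, all higher, or in conventional dendritic cells, where 0.126% of 2376 did, all lower. In T cells this depended on Placebo 2: without it 4 members were tested and all 4 passed higher, as 523 of 11232 genes passed in either direction, in a fit that sets Progesterone 1 against Placebo 1. With no filter on low counts 1 member passed higher in T cells. Neutrophils, NK cells and endothelial cells had too few libraries for a fit.

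Among 45 further complement genes, taken from lists by role, more of those called in macrophages fell than rose. Of 23 tested in macrophages, 8 fell and 1 rose, where 7.42% of all genes tested fell and 5.65% rose. Fcna, a ficolin that starts the lectin pathway, was at 20.2, 9.76 and 5.06 CPM in the progesterone libraries and at 76.4 CPM in Placebo 2, and fell by 3.26 (SE 0.273, edgeR adjusted p = 7.91e-05). Cfd, the protease that activates factor B, fell by 1.72 at a level of at most 2.34 CPM. C1ra (a C1 protease, -1.01), Cd93 (-0.95), Colec12 (a collectin, -0.73) and C1qbp (a C1q-binding protein, -0.58) fell as well. The subunits of the integrin receptors for cleaved C3 split: Itgam fell by 0.72 and Itgax rose by 0.78, with 103, 105 and 122 CPM in the progesterone libraries and 66.3 CPM in Placebo 2. Colec12 of Progesterone 1 lay above Placebo 2. The median log2 fold change over those of the 45 genes tested was -0.63 in macrophages, -0.75 in the Mrc1 cluster and -0.51 in the Trem2 cluster. The part of the unequal cluster make-up in the whole-class values was not tested. Without the batch term none of these passed, and with DESeq2 2 did.

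In epithelial cells 6 of 33 rose and 6 fell, where 23.3% of all genes tested rose and 24.6% fell. The terminal component C5 (Hc) rose by 1.97, with 17.9, 10.8 and 12.0 CPM in the progesterone libraries and 2.59 CPM in Placebo 2 (SE 0.138, edgeR adjusted p = 4.89e-06). C1s1, a C1 protease, rose by 0.62, with 40.7, 24.1 and 21.6 CPM in the progesterone libraries and 13.4 CPM in Placebo 2. Of 13 regulators tested, 4 rose and 3 fell. Of the inhibitors on the cell surface, Cd55 rose by 0.30, with 34.7, 24.2 and 24.7 CPM in the progesterone libraries and 17.8 CPM in Placebo 2. Cd59a fell by 0.96 and Cr1l by 0.68, with 30.6, 31.0 and 30.8 CPM of Cr1l in the progesterone libraries and 44.5 CPM in Placebo 2. Cfd (-3.87) and C5ar2 (-2.12) fell and C4bp (2.16), Vtn (2.01) and Cd59b (1.98) rose, at levels of at most 1.12 CPM. C1ra, C1s1 and the Cd59 genes have close paralogs, so their counts are uncertain where reads match both. In fibroblasts 4 of 15 rose and 1 fell, where 2.62% of all genes tested rose and 1.77% fell. Serping1, the C1 inhibitor, had 1250.4, 855 and 972 CPM in the progesterone libraries and 443 CPM in Placebo 2, and rose by 1.25 (SE 0.203, edgeR adjusted p = 0.00208). C2 (1.72) and Masp1 rose and Cd55, a membrane inhibitor, fell by 0.76.

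Over the 36 sums, each gene was set beside 12003 others by Pearson's r of log2(CPM + 1). The most like C1qa were Trem2 (0.939), Fcrls (0.918) and Ms4a7 (0.914), and those most like C3ar1 were F13a1 (0.954), Ear2 (0.95) and Fcgr1 (0.942). C5ar1 was most like Clec5a (0.983), Slc11a1 (0.975) and Cd300lb (0.967), and Cfp most like Pirb (0.935), Nfam1 (0.923) and Clec12a (0.899). C3 was most like Thbs1 (0.912), Fam114a1 (0.903) and Dram1 (0.887), Cfb most like Gm1673 (0.925), Ank2 (0.922) and Colec12 (0.921), and C4b most like Lpl (0.891), Pmp22 (0.881) and Igf1 (0.87). Among the members, Cfb and C4b correlated at 0.79 and C3 and Cfb at 0.72, while Cfp and Cfb were at 0.1. The sums share libraries and depth, so these values are a description.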

How the data were processed

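The 5 libraries, labelled tumour, were deposited as counts, whole UMIs per gene and barcode not normalised by the authors. Cell Ranger 8.0.1 made the counts per the file headers, but version 7.0.0, with mm10, stands in the submitters' processing notes. The symbols included no mitochondrial gene, and 0 columns lacked a sample.

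Cells with at least 250 genes were kept (23018 of 24022 barcodes) after removal of 1.785 to 4.678% of barcodes per library as doublets, scored against simulated doublets. Clustering (scanpy 1.11.5, Leiden at resolution 1, 2000 variable genes, 30 components, 20 neighbours, no batch integration) left out 54 complement genes. A cluster was named for its highest-scoring class where at least 3 markers were detected, the score was at least 0.5 and it led by 0.3. Macrophages and monocytes were not set against each other in that lead. Clusters also stayed unnamed by rules on low UMI counts and on markers among the leading genes. The members, the lists and the tests were chosen with earlier results of these data known. The monocyte class, the split of macrophages, the handling of the Wfdc18 cluster and the tests between clusters, classes and batches were chosen after the data were seen.

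Counts were summed per library and class (at least 10 cells) and compared by edgeR 4.0.16, run under R 4.3.3 (TMM, filterByExpr, robust quasi-likelihood, prior count 2, batch as a covariate), Benjamini-Hochberg adjusted within a class at 0.05. DESeq2 1.42.0 was an alternative. The steps were tested on simulated data. Batch, named in the titles, pairs the samples. In monocytes and T cells the deviations of Progesterone and Placebo libraries of 1 batch correlated at 0.124 to 0.596, and those of Progesterone 2 and 3, also of 1 batch, at -0.349 and -0.478. With 2 placebo libraries, values across batches mirror those within. The deviations of the 3 progesterone libraries from their mean cancel out, which pulls their pairs to negative values, so those values cannot speak to pairing. Other complement genes were named where they passed, at most 10 per class by size, and 1 that is in the counts is not reported here by name. Like genes are the 3 with the highest Pearson r. Intervals are exact at 95%, a count of 0 allows 3 counts, and both cover counting error only. Coordinates are those of GENCODE M21, and promoter sequences those of RefSeq on GRCm38.p6.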

Additional observations from a re-analysis of the deposited data

Results flagged for a closer look

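Several effects of progesterone differed between groups of cells by a test of the difference itself, each with edgeR and 1 residual degree of freedom. That degree of freedom is the spread between Progesterone 2 and 3. EdgeR also pools spread over genes, so the p-values do not measure these libraries alone. Genes that are no members passed each of these tests too, most of them between fibroblasts and epithelial cells. Between the Mrc1 and the Trem2 macrophages the log2 difference of the effects was -1.12 for C1qa (edgeR adjusted p = 9.05e-09), -0.72 for C1qb (0.00121), -1.26 for C1qc (1.82e-10), -1.12 for C3ar1 (4.13e-05), -1.18 for C5ar1 (5.05e-06) and -1.45 for C4b (5.54e-08). In the Mrc1 cluster each of these 6 genes was lower in all 3 progesterone libraries than in Placebo 2. Progesterone 1, absorbed by the batch term, rests there on 15 cells, and its C4b on 1 of them.

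Between fibroblasts and epithelial cells the difference was 0.94 for C3 (edgeR adjusted p = 6.9e-06), 3.44 for Cfb (2.65e-24) and 2.31 for C4b (1.31e-12), and between fibroblasts and macrophages it was 1.26 for Cfb (0.0034) and 1.36 for C4b (0.000358). In Progesterone 2 and 3 Cfb was higher in fibroblasts and lower in epithelial cells than in Placebo 2. In fibroblasts alone Cfb did not pass. Progesterone 1, absorbed by the batch term, lay on the same sides. It rests there on 52 epithelial cells and on 30 fibroblasts with a median of 1246.5 UMIs per cell.

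In monocytes the effect in batch 1 minus that in batch 2 was -2.72 for C1qa (edgeR adjusted p = 0.00153), -2.80 for C1qb (0.00032) and -2.12 for C1qc (0.0143). Progesterone 1 was below Placebo 1 for each chain, and Progesterone 2 and 3 were above Placebo 2. Batch 1 rests on 12 monocytes in Placebo 1.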

How the results depend on the processing

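The number of members that passed depended on the settings in most classes. Without the replicate block (the batch term) 0 members passed in macrophages (4 with it), the Mrc1 cluster (7), the Trem2 cluster (2) and fibroblasts (1), and 2 in epithelial cells (3). In both clusters and in fibroblasts no gene at all passed without the block. Its removal changed no other count of members. With DESeq2, 0 passed in macrophages, the Trem2 cluster and fibroblasts and 1 in monocytes. With class sums thinned to the lowest total, 0 passed in macrophages, both clusters and fibroblasts, 1 in epithelial cells and 1 in monocytes. In macrophages 0 passed with monocytes pooled in, and 0 with doublets kept or at resolution 2, settings that also merged the monocytes, and so Placebo 1, into the class. There C3 was -0.41 with doublets kept and -0.29 at resolution 2, Cfp 0.045 with doublets kept, and C4b 0.065 and 0.18. In fibroblasts 2 passed with no filter on low counts, 2 with doublets kept and 0 with the Wfdc18 cluster added. In monocytes 2 passed with no filter, where 77 of 15194 genes did. With at least 20 cells per library, or with either placebo library left out, 1 placebo library remains, so only log2 differences are given. C1qa there ran from -1.13 without Placebo 2 to 1.58, and C1qb was -1.54 without Placebo 2, 1.26 without Progesterone 1, 1.25 without Placebo 1 and 1.25 with at least 20 cells. The cause of these changes was not tested.

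Of the other complement genes 9 passed in macrophages. The count was 0 without the replicate block, 2 with DESeq2, 2 with thinned sums and 0 with doublets kept, at resolution 2 (both with monocytes merged in) or with monocytes pooled in. In epithelial cells 12 passed, but 5 without the block, 4 with DESeq2 and 2 with thinned sums. In fibroblasts 5 passed, but 0 without the block and 1 with DESeq2, thinned sums or the Wfdc18 cluster. Over all genes, 1667 passed in macrophages, but 5 without the block, 264 with DESeq2, 329 thinned, 66 with doublets kept and 6 at resolution 2. In epithelial cells 7792 passed, but 1901, 4428 and 2940 under the first 3 of these, and in fibroblasts 500, but 0, 75 and 85.

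The mean share of macrophages with a C1qa UMI was 77.3% thinned and 83.4% with all UMIs. Of 45 pairs of member and library, 32 were highest in macrophages or monocytes, and 33 with doublets kept or at resolution 2. Classes under 10 cells were not ranked. In the main setting these included macrophages, fibroblasts, neutrophils and epithelial cells of Placebo 1 and neutrophils of Placebo 2. Leaving out Progesterone 2 or 3 leaves no residual degree of freedom in classes without Placebo 1, so those fits gave no test. The number of cells limits Placebo 1, with 5 macrophages, 5 fibroblasts and 3 epithelial cells.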
